A study of Mus musculus with 6 samples.

Results

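The genes described here are 7 members of the Notch pathway, chosen by name: the receptors Notch1, Notch2 and Notch4, the ligand Jag1, the DNA-binding partner Rbpj, and the target and regulator genes Hes1 and Dtx1. All probes annotated to them were used, 11 of the 45281 on the array, and the table named 19057 genes in all. RNA came from spleen of strain C57/B6 mice and was measured on Illumina bead arrays in macrophages and in conventional dendritic cells (cDC) of the CD8+ and CD8- kind, with 2 arrays for each of the 3 populations. No genotype, treatment or time point other than the strain is given in the labels. Neither the age or sex of the mice nor the way of isolating the cells is stated in the sources used here. Nothing says that replicates came from separate animals, so the p-values cover only the spread of these arrays, which may be technical.

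Notch receptors are cut when a ligand on a neighbouring cell binds them, and their intracellular part enters the nucleus, where it joins Rbpj and Mastermind-like coactivators to switch on genes such as Hes1 and Dtx1. In the mouse spleen, Notch2 signalling is known to be needed for the Esam-high part of the CD8- cDC and for marginal zone B cells. The comparisons ask how the transcripts of receptors, ligand and targets were spread over the 3 myeloid populations.

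Promoter sequences are shown for Notch4 and Dtx1, because these genes differed most in level between the populations and had their highest levels in different cDC. Both are from RefSeq, build GRCm38.p6, written 5′ to 3′ from 250 bases before the transcript start to 50 bases from it on, and the single capital letter is the first transcribed base.
Notch4, chr17:34564045-34564344, plus strand: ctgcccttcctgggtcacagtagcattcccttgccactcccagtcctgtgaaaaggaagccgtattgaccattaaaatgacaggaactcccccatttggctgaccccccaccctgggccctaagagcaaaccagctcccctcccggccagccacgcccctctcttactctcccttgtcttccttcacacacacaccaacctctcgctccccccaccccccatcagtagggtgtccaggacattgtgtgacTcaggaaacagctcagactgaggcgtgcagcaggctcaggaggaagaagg
Dtx1, chr5:120711620-120711919, minus strand: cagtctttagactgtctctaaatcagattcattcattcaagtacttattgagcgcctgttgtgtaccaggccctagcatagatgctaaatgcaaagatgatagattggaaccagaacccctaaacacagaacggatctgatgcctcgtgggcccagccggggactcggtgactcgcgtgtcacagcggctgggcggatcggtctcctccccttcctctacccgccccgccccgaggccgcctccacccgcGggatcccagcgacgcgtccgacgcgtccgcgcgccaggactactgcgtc

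The motif bound by Rbpj, GTGGGAA, was searched on both strands of 7 promoters of 6 of the genes. Rbpj itself had more than 1 promoter, whose windows overlapped, and Hes1 had no entry. It was found in 0 of these 7 windows, while 6.38% of all 32851 promoter windows of the same length held it. The shorter form TGGGAA, which is part of the longer motif, was in 2 of 7 and in 25.6% of all windows. Both of the former were Rbpj promoters, and a site in their overlap was counted in each.

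Of the 11 probes, 6 lay above the background level on at least 1 array and 5 did not on any. That level, 5.25 on the log2 scale, is the 99th percentile of 1597 probes for sensory receptor genes (smell, pheromone and taste) and for hair keratin-associated proteins, taken as silent in these cells. The deposited columns share 1 distribution, which fixes the number of probes above this level at nearly the same value on each array (15802 to 15827). All levels below are log2 signals as deposited, all differences are log2 differences, and levels are compared only within a probe. Where a gene has several probes they are lettered by their mean signal, with A the brightest.

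Known markers placed the populations where their labels put them, with limits. Of 6 macrophage markers measured, 5 were higher in macrophages than in CD8+ cDC and 4 higher than in CD8- cDC. Adgre1 and Vcam1 were not called against CD8- cDC, where Adgre1 read 11.89 and 11.87. The mean of the 6 was 12.92 and 13.08 in macrophages, 7.32 and 8.94 in CD8+ cDC and 9.21 and 8.27 in CD8- cDC, replicate 1 first. Of 5 cDC markers, 3 were lower in macrophages than in each cDC population, while Flt3 and H2-Aa were not called. The cDC transcription factor Zbtb46 read 6.17 and 6.47 in macrophages against 9.33 to 9.68 on the cDC arrays. Of 7 CD8+ cDC markers, 2 were lower in CD8- than in CD8+ cDC, and of 6 CD8- cDC markers 4 were higher. Cd8a itself was above background on only 1 array, CD8+ cDC replicate 1 (5.67). In each population, replicate 1 carried more signal from T cell, B cell, erythroid and neutrophil markers than replicate 2. Of 9 T cell markers measured, Cd247, Cd5 and Themis were at background on every array, and the list's mean was 6.40 and 4.74 in macrophages, 5.79 and 5.11 in CD8+ cDC and 6.04 and 5.30 in CD8- cDC, replicate 1 first. The mean of 8 neutrophil markers was 7.15 on macrophage replicate 1 and between 4.70 and 5.56 on the other arrays.

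**Figure D1:**
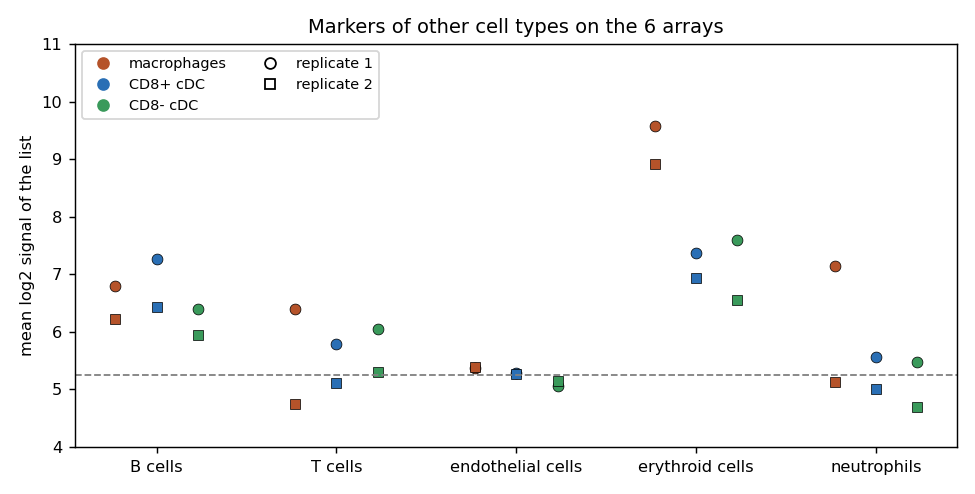
Mean log2 signal of marker lists of other cell types (y axis) on each of the 6 arrays, by list (x axis). Colours mark the populations, circles replicate 1 and squares replicate 2, and the dashed line is the background level of 5.25. Replicate 1 lies above replicate 2 in every population for the B cell, T cell, erythroid and neutrophil lists.

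Among the receptors, Notch4 had the widest spread between populations, and its signal was highest in CD8+ cDC. Notch4 probe A (ILMN_1220697) read 12.07 and 12.37 in CD8+ cDC, 9.0 and 9.26 in CD8- cDC, and 8.42 and 7.04 in macrophages. The populations did not overlap, and the macrophage arrays lay furthest apart from each other. Macrophage replicate 1 was the higher of these for Notch4, Dtx1 and Jag1. It also had the higher mean of 7 CD8+ cDC markers (7.82 against 7.28) and of 5 general cDC markers (7.97 against 7.63). The mean of 6 markers of CD8- cDC, the population highest in Dtx1 and Jag1, was 8.35 on it and 8.37 on replicate 2. The part of such cells in the signal of macrophage replicate 1 was not tested. Notch4, a receptor best known from endothelial cells, was lower in macrophages than in CD8+ cDC (log2 difference -4.49, SE 0.47, 22.5-fold, limma adjusted p = 0.00969). Only 138 of the 45281 probes had a larger absolute difference in that comparison. Probe B (ILMN_1256134) was above background in CD8+ cDC alone, at 6.63 and 7.46, and read 5.23 and 4.88 in CD8- cDC and 4.99 and 4.45 in macrophages. Its macrophage level was at least 3.46-fold lower than that of CD8+ cDC (limma adjusted p = 0.0234), the macrophage arrays being counted at the background level.

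Between CD8- and CD8+ cDC, Notch4 probe A differed by -3.09 (SE 0.47, 95% interval -4.30 to -1.89, 8.54-fold), which did not pass over all probes (limma adjusted p = 0.0647). Probe B differed by -1.99 (limma adjusted p = 0.0911). The call of probe A depended on the fit. It was made when dim probes were left out (adjusted p = 0.00807), when the variance prior followed signal intensity (0.000476) and when the 4 cDC arrays were fitted alone or without either macrophage array (0.0381), while over all alternatives the adjusted p ran from 0.000476 to 0.273, the highest being without CD8- cDC replicate 2. Without any 1 of the 4 cDC arrays, 0 of all 45281 probes were called between CD8- and CD8+ cDC (4244 to 4856 at an unadjusted p under 0.05, against 5156 with all arrays), so a call lost there is not particular to a gene. Macrophages and CD8- cDC differed by -1.40 in probe A (limma adjusted p = 0.176). This was called in 3 of 10 alternatives, with dim probes left out (adjusted p = 0.0448), with a trend (0.0252) and without macrophage replicate 1 (-2.09, 0.0177). Against CD8+ cDC, the call of probe A was lost without CD8+ cDC replicate 1 (limma adjusted p = 0.0603) or replicate 2 (0.0645), and that of probe B without macrophage replicate 2 (0.103), CD8+ cDC replicate 2 (0.0753), either CD8- cDC array, or both of them together (0.059). Of 10 endothelial markers, Kdr, Tie1, Tek, Emcn, Sox17 and Sox18 were at background on all arrays, and the list's summed linear signal was 669 and 812 in CD8+ cDC, 641 and 750 in CD8- cDC and 1992 and 2266 in macrophages. Most of the macrophage sum was Pecam1, which macrophages carry too. Among the others, Cdh5 read 6.34 and 5.21 in CD8+ cDC and 5.19 to 5.56 elsewhere, Egfl7 5.23 and 6.12 against 4.93 to 5.12, and Robo4 5.49 and 4.65 against 4.79 to 5.09. The highest single reading of each was in CD8+ cDC, on replicate 1 for Cdh5 and Robo4 and on replicate 2 for Egfl7. None of these markers was called in any comparison. The part of endothelial cells in the Notch4 signal was not tested.

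**Figure D2:**
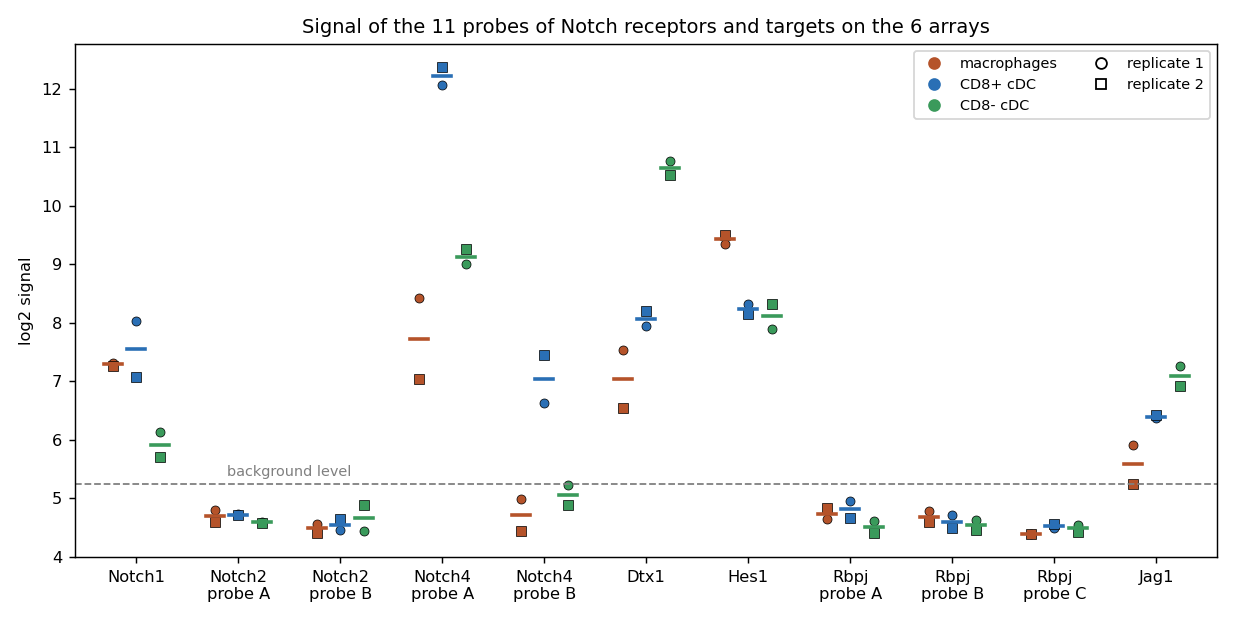
Log2 signal (y axis) of each of the 11 probes (x axis) on the 6 arrays, with circles for replicate 1, squares for replicate 2 and bars for the mean of each population. Notch4 is highest in CD8+ cDC, Dtx1 and Jag1 in CD8- cDC and Hes1 in macrophages, and all Notch2 and Rbpj probes lie under the dashed background level of 5.25.

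Notch1, the receptor needed for T cell commitment in the thymus, was lowest in CD8- cDC. It (ILMN_1241915) read 7.31 and 7.27 in macrophages, 8.03 and 7.08 in CD8+ cDC, and 6.13 and 5.71 in CD8- cDC. The CD8- cDC arrays lay below the other arrays, while macrophages and CD8+ cDC overlapped. CD8- cDC differed from CD8+ cDC by -1.64 (SE 0.34, 95% interval -2.53 to -0.76), without a call (limma adjusted p = 0.134). With dim probes left out this adjusted p was 0.0324, and with an intensity trend 0.0229. Macrophages differed from CD8- cDC by 1.38 (SE 0.34, limma adjusted p = 0.0861). This was called in 6 of 10 alternatives. They were the replicate block, the filter on dim probes, the intensity trend and the 4 arrays of these populations alone (limma adjusted p = 0.0355). Leaving out either CD8+ cDC array gives the last of these fits again. The difference of macrophages from CD8+ cDC was -0.27 (95% interval -1.15 to 0.62), and 0.21 without CD8+ cDC replicate 1. That array also had the higher mean of T cell markers (5.79 against 5.11) and of B cell markers (7.26 against 6.43) within CD8+ cDC. Replicate 1 first, the T cell mean was 6.40 and 4.74 in macrophages, where Notch1 read 7.31 and 7.27. In CD8- cDC it was 6.04 and 5.30, where Notch1 read 6.13 and 5.71. The part of T and B cells in the Notch1 signal was not tested. As in any bulk sample, fewer cells carrying a transcript and less of it per cell cannot be told apart.

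Notch2 gave no usable reading. Its probes lay between 4.40 and 4.88 on all 6 arrays, under the background level, so these arrays hold no level of the receptor in any population. The same held for Rbpj, the DNA-binding protein through which all Notch receptors act, whose 3 probes lay between 4.39 and 4.96. No fold is given for either gene. Such readings set no order between the populations and do not show that the transcripts were missing.

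Jag1, a Notch ligand of the Serrate type, had its highest signal in CD8- cDC. It (ILMN_1257077) read 7.26 and 6.93 there, 6.37 and 6.43 in CD8+ cDC and 5.91 and 5.24 in macrophages, where replicate 2 was at background. The populations did not overlap. Jag1 was lower in macrophages than in CD8- cDC (log2 difference -1.52, SE 0.25, 2.86-fold, limma adjusted p = 0.0291). Macrophages differed from CD8+ cDC by -0.82 (limma adjusted p = 0.152) and CD8- from CD8+ cDC by 0.69 (SE 0.25, limma adjusted p = 0.396). The call against CD8- cDC was kept in 4 of 10 alternatives, among them without macrophage replicate 1 (limma adjusted p = 0.017). It was lost in the others, with an adjusted p of 0.0549 without macrophage replicate 2, 0.0729 without either CD8+ cDC array or both, 0.139 without CD8- cDC replicate 1 and 0.10 without replicate 2. Without macrophage replicate 1 a call against CD8+ cDC appeared (-1.16, limma adjusted p = 0.0444).

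Dtx1, or Deltex 1, is a ubiquitin ligase that binds the intracellular part of Notch and is itself a Notch target in lymphocytes. Its signal was highest in CD8- cDC, the opposite order to Notch4 among cDC. Dtx1 (ILMN_2641793) read 10.77 and 10.53 in CD8- cDC, 7.94 and 8.20 in CD8+ cDC, and 7.53 and 6.55 in macrophages. The populations did not overlap. It was lower in macrophages than in CD8- cDC (log2 difference -3.61, SE 0.34, 12.2-fold, limma adjusted p = 0.00727). This call was lost without CD8- cDC replicate 1 (limma adjusted p = 0.054) or replicate 2 (0.0538), and the difference stayed between -4.10 and -3.12.

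Between the cDC populations Dtx1 differed by 2.58 (SE 0.34, 95% interval 1.69 to 3.47, 5.98-fold), just outside the threshold (limma adjusted p = 0.0511). Only 181 probes had a larger absolute difference. It was called with dim probes left out (limma adjusted p = 0.00719), with an intensity trend (0.000722), and with the 4 cDC arrays alone or without either macrophage array (0.0397), while over all alternatives the adjusted p ran from 0.000722 to 0.23. Macrophages differed from CD8+ cDC by -1.03 (limma adjusted p = 0.183), and by -1.52 without macrophage replicate 1, with a call (0.029). B cells also use Dtx1, and the mean of 8 B cell markers was 6.40 and 5.94 in CD8- cDC, 7.26 and 6.43 in CD8+ cDC and 6.79 and 6.23 in macrophages. Of these markers, Pax5 was at background on all arrays, 3 were above it on all arrays, and their summed linear signal was 1977 and 1215, 3888 and 1577, and 2444 and 1728 in the same order. The only B cell marker called was Fcer2a, higher in macrophages than in CD8+ and CD8- cDC (limma adjusted p = 0.00722 and 0.00387). The part of B cells in the Dtx1 signal was not tested.

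Hes1, the basic helix-loop-helix repressor that is the best known Notch target, was higher in macrophages than in either cDC population. It (ILMN_1247691) read 9.35 and 9.51 in macrophages, 8.32 and 8.15 in CD8+ cDC, and 7.90 and 8.33 in CD8- cDC. The macrophage arrays lay above all 4 cDC arrays, while the cDC populations overlapped. The difference was 1.19 against CD8+ cDC (SE 0.17, 2.29-fold, limma adjusted p = 0.0223) and 1.32 against CD8- cDC (SE 0.17, 2.49-fold, limma adjusted p = 0.0163). CD8- and CD8+ cDC differed by -0.12 (95% interval -0.58 to 0.33, limma adjusted p = 0.947), and by 0.09 without CD8- cDC replicate 1. Against CD8+ cDC the call was lost without macrophage replicate 1 (limma adjusted p = 0.0616), macrophage replicate 2 (0.107), CD8+ cDC replicate 1 (0.0938) or CD8+ cDC replicate 2 (0.115). Against CD8- cDC it was lost without CD8- cDC replicate 1 (limma adjusted p = 0.0547) or macrophage replicate 2 (0.0828). Erythroid markers were also higher in macrophages: the mean of 6 of them was 9.58 and 8.92 there, 7.37 and 6.93 in CD8+ cDC and 7.59 and 6.55 in CD8- cDC. Of these, Epor was at least 8.23-fold higher than in either cDC population (limma adjusted p = 0.00381 and 0.00311), and Klf1 was called against CD8+ cDC only (0.0463). Slc4a1, Alas2 and Hba-a1 were not called, and Tfr2 was at background on all arrays. In macrophages, replicate 1 first, Epor read 8.09 and 8.5. There Slc4a1 read 12.16 and 9.88, Alas2 11.19 and 10.19, Klf1 7.24 and 6.15, and Hba-a1 14.16 and 14.13. The part of erythroid cells in the Hes1 signal was not tested.

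**Figure D3:**
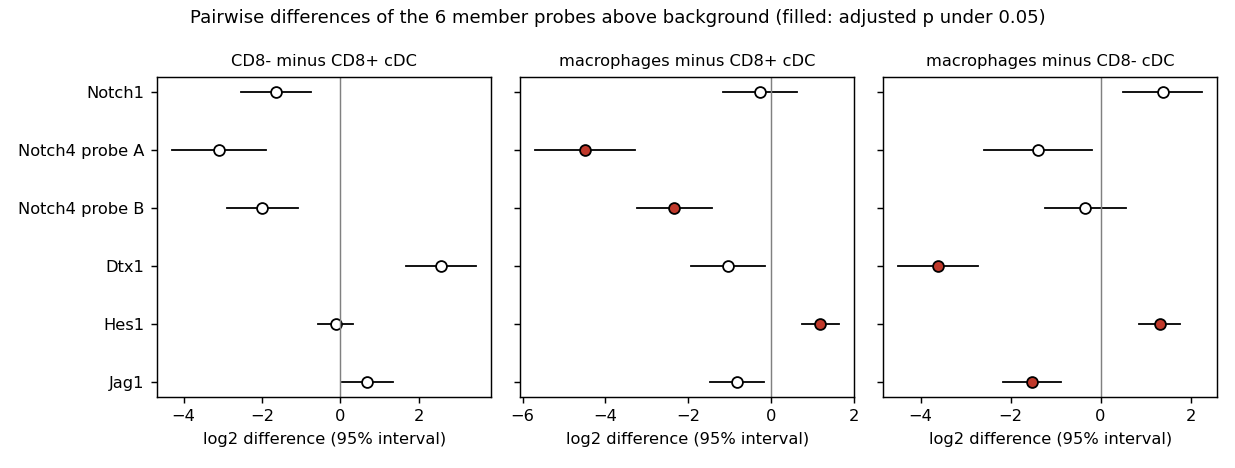
Log2 differences (x axes) of the 6 probes above background in the 3 pairwise comparisons, with 95% intervals from limma; filled points have an adjusted p under 0.05. Notch4 and Dtx1 show the widest differences, in opposite directions between CD8- and CD8+ cDC, where no probe passed, and Hes1 passed in macrophages against each cDC population.

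Counted over all 11 probes, 0 were called between CD8- and CD8+ cDC by limma, where 1.41% of all probes were called (0.552% higher and 0.855% lower). At an unadjusted p under 0.05 the count was 5, in Notch1, Notch4, Dtx1 and Jag1, against 11.4% of all probes. With dim probes left out 4 were called (6.75% of the probes then tested). Among them was Notch4 probe B, which passed this filter only through its CD8+ cDC arrays, where it was highest. With an intensity trend 4 were also called (2.57%). With the 4 cDC arrays alone 2 were called (0.68%), as also without macrophage replicate 1 and without macrophage replicate 2. Between macrophages and CD8+ cDC 3 probes of 2 genes were called, 1 higher and 2 lower, against 8.5% of all probes (4.43% higher and 4.07% lower). Each fit without an array called fewer of all probes in this comparison too, so a member call lost there need not be particular to these genes. Between macrophages and CD8- cDC 3 probes of 3 genes were called, 1 higher and 2 lower, against 9.32% of all probes (4.74% higher and 4.57% lower). Here too, each fit without an array called fewer of all probes. The median log2 difference over the 11 probes was -0.12, -0.14 and -0.09 in the 3 comparisons, beside 0.00 over all probes. Under the other fits, 3 member probes were called against CD8+ cDC with the replicate number as a block (9.64% of all probes), 3 without dim probes (27.4%), 3 with a trend (9.91%) and 2 with 4 arrays (5.81%). Against CD8- cDC the counts were 4 (10.3%), 5 (29.2%), 5 (10.5%) and 3 (6.85%), and between the cDC populations the block gave 0 (1.4%). The macrophage comparisons share the macrophage arrays and are not independent of each other. All 6 member probes with a signal were above background on at least 2 arrays, Notch4 probe B only on those of CD8+ cDC. A probe can enter this selection through 1 population where it is high. Of all probes so selected, 3.57%, 21.2% and 23.2% were called in the 3 comparisons, in the same order.

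The rest of the pathway was followed through a list of 63 further genes for ligands, receptor processing, glycosylation, coactivators, corepressors and targets. Of these, 57 had a named probe, 29 lay above background on all arrays and 15 on none, with the brightest probe standing for each gene. Between CD8- and CD8+ cDC 0 were higher and 2 lower, where 2.04% of all genes were called (0.756% higher and 1.29% lower). Between macrophages and CD8+ cDC 7 were higher and 4 lower (11.8% of all genes called, 6.55% higher and 5.25% lower), and between macrophages and CD8- cDC 9 were higher and 2 lower (13.1%, of which 7.14% higher and 5.93% lower). The list's median differences were -0.05, 0.05 and 0.09 in these comparisons, beside 0.00 over all genes in each. The count of 2 became 0 without any single array and with the 4 cDC arrays alone. Without a cDC array no probe of any gene was called in that comparison, and without a macrophage array or with 4 arrays 308 of all probes were, in place of 637. The count of 11 against CD8+ cDC became 8 without macrophage replicate 1, 3 without CD8+ cDC replicate 1, 6 without CD8+ cDC replicate 2, 4 without macrophage replicate 2 and 5 without either CD8- cDC array, while 1244 to 3476 of all probes were called in these fits in place of 3850. The count of 11 against CD8- cDC stayed at 11 without macrophage replicate 1 and became 10 without either CD8+ cDC array, 4 without CD8- cDC replicate 1, 2 without CD8- cDC replicate 2 and 7 without macrophage replicate 2, where 1189 to 3700 of all probes were called in place of 4218.

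Among the other ligands, Jag2 was at background in macrophages and CD8- cDC and read 5.57 and 6.17 in CD8+ cDC, at least 1.53-fold above macrophages (limma adjusted p = 0.0262). That call was lost in 5 of 10 alternatives: without macrophage replicate 1 (0.0938) or replicate 2 (0.105), and without either CD8- cDC array or both (0.0702). The comparison of Jag2 between CD8- and CD8+ cDC was not called (limma adjusted p = 0.0942). Dll4 and Dll3 were at background on all arrays, as was the receptor Notch3, and Dll1 lay near it, between 5.10 and 5.98. Mfng, a Fringe enzyme that adds sugars to Notch and alters which ligands it answers to, was lower in macrophages than in CD8- cDC (log2 difference -1.09, limma adjusted p = 0.0213), while its second probe was not called (-0.58). Neurl1a, a ubiquitin ligase acting on ligands, read 7.73 and 8.40 in macrophages and 4.58 to 5.43 on the cDC arrays. It was 2.98 higher than in CD8+ cDC (limma adjusted p = 0.0103) and at least 7.02-fold higher than in CD8- cDC (limma adjusted p = 0.00691).

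Of 5 measured subunits of gamma-secretase, the protease that releases the intracellular part of Notch, 2 were called, Aph1b and Psen2, both higher in macrophages. Aph1b read 9.47 on both macrophage arrays, 7.87 and 7.95 in CD8+ cDC and 7.09 and 7.23 in CD8- cDC, with no overlap. Its differences were 1.55 against CD8+ cDC (limma adjusted p = 0.00306) and 2.31 against CD8- cDC (0.00174), and CD8- cDC were lower than CD8+ cDC (log2 difference -0.75, limma adjusted p = 0.0442). The calls against macrophages were kept in all 10 alternatives, and that between the cDC populations in 0 of 10. Psen2, a catalytic subunit, was 1.33 and 2.0 higher in macrophages than in CD8+ and CD8- cDC (limma adjusted p = 0.0232 and 0.00801). The first of these calls was kept in 4 of 10 alternatives and the second in 8, with adjusted p up to 0.108 (without macrophage replicate 2) and 0.0617 (without CD8- cDC replicate 2). Ncstn, Aph1a and Psenen were not called, and Psenen differed by -0.49 between macrophages and CD8- cDC (limma adjusted p = 0.0507).

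Maml2, a Mastermind-like coactivator of the Notch and Rbpj complex, was lowest in CD8- cDC. It read 9.49 and 9.37 in macrophages, 8.96 and 8.53 in CD8+ cDC, and 7.12 and 7.36 in CD8- cDC, without overlap. CD8- cDC were lower than CD8+ cDC (log2 difference -1.5, SE 0.18, limma adjusted p = 0.0399) and macrophages 2.19 higher than CD8- cDC (limma adjusted p = 0.00519). The first of these calls was lost in 8 of 10 alternative fits, and the second Maml2 probe was called in neither comparison (-0.22 and 0.61). Dtx4, a relative of Dtx1, had its lowest signal in the population where Dtx1 had its highest: it read 5.27 and 5.46 in CD8- cDC, 6.64 and 6.85 in CD8+ cDC and 7.40 and 8.36 in macrophages. Dtx4 was 2.51 higher in macrophages than in CD8- cDC (limma adjusted p = 0.0159) and was not called between the cDC populations (-1.38, limma adjusted p = 0.184). Its second probe gave the same calls (1.76 and -1.19).

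Of the corepressors of the Groucho family, which Hes proteins recruit, Tle1 was 1.05 and 1.14 higher in macrophages than in CD8+ and CD8- cDC (limma adjusted p = 0.00936 and 0.00726), and Tle4 0.94 and 1.29 higher (0.0264 and 0.011). Tle3 went the other way, at -1.37 and -1.01 (limma adjusted p = 0.0111 and 0.0223), though its dimmer probes, between -0.59 and -1.14, were not called. Dimmer probes of Psen2, Neurl1a, Tle2 and Tle4 were not called either, and those of Tle1 were called in part. Tle2 was called only against CD8+ cDC, at least 1.25-fold higher in macrophages (limma adjusted p = 0.0354). Hey1, a target gene related to Hes1, read 6.35 and 6.63 in macrophages and was at background on all 4 cDC arrays. It was at least 2.36-fold higher in macrophages than in either cDC population (limma adjusted p = 0.0121 and 0.0118). Endothelial cells also express Hey1, and Pecam1, the brightest endothelial marker here, read 10.77 and 10.98 in macrophages and 8.52 to 9.05 on the cDC arrays. Macrophages carry Pecam1 too, and the other markers of that list did not follow it. Kdr, Tie1, Tek, Emcn, Sox17 and Sox18 were at background on all arrays, and Egfl7 and Robo4 on the macrophage arrays. Cdh5 read 5.29 and 5.56 in macrophages, 6.34 and 5.21 in CD8+ cDC and 5.29 and 5.19 in CD8- cDC. The part of other cells in the Hey1 signal was not tested. Calls of the other genes named here also depended on the fit. That of Tle4 against CD8+ cDC was lost with the 4 arrays of these populations alone. It was also lost without macrophage replicate 1, without either CD8+ cDC array and without either CD8- cDC array. Of 10 alternatives, the call against CD8+ cDC was kept in 9 for Neurl1a and Hey1, 8 for Tle1 and Tle3 and 3 for Tle2, and that against CD8- cDC in 9 for Neurl1a and Tle1, 8 for Dtx4 and Tle4, 7 for Hey1 and Mfng and 6 for Tle3. The remaining called genes changed by less than 1 on the log2 scale: Numb, an inhibitor of Notch, was 0.62 higher in macrophages than in CD8- cDC, and Poglut1, which adds glucose to Notch, and Dtx2 were lower in macrophages than in CD8+ cDC (-0.90 and -0.85).

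**Figure D4:**
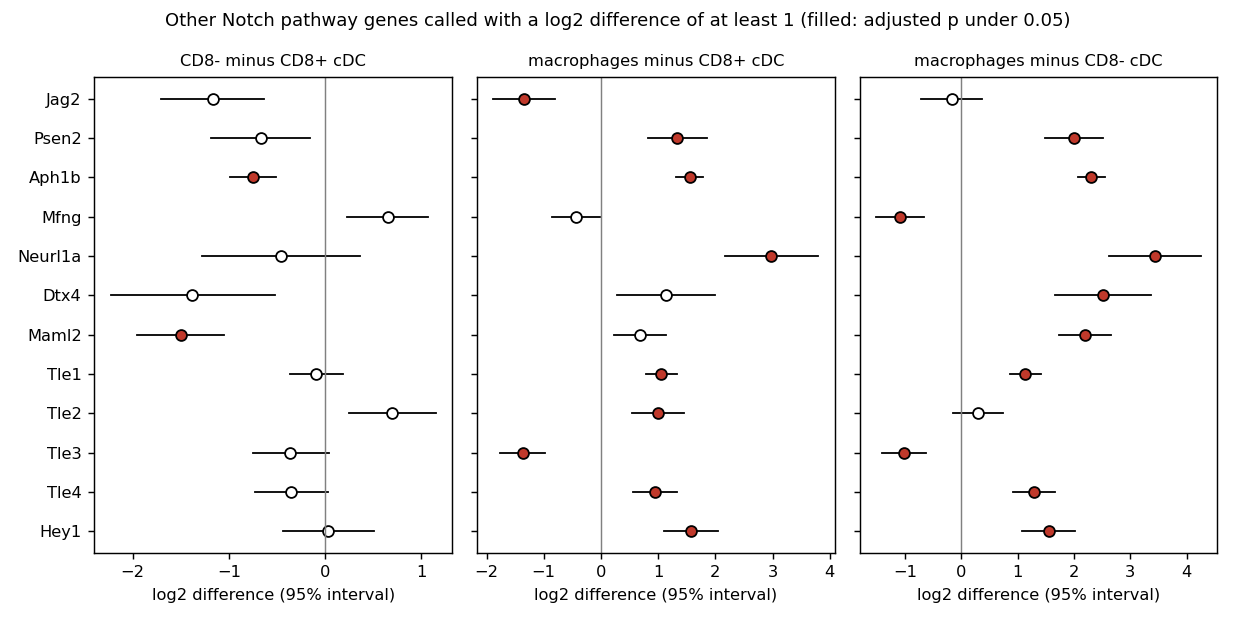
Log2 differences (x axes) with 95% intervals for the 12 further Notch pathway genes called with a difference of at least 1 in some comparison; filled points have an adjusted p under 0.05. Aph1b, Psen2, Neurl1a, Tle1, Tle4 and Hey1 were higher in macrophages than in each cDC population, and Tle3 was lower.

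Genes known to mark the Notch2-dependent, Esam-high CD8- cDC were read on the same arrays. Esam, an adhesion molecule, read 11.42 and 11.73 in CD8- cDC, 9.13 and 9.83 in CD8+ cDC and 10.35 and 10.63 in macrophages, with no overlap, and was 2.10 higher in CD8- than in CD8+ cDC (SE 0.27, limma adjusted p = 0.0482). Cd4 was 2.71 higher (limma adjusted p = 0.0293) and the lectin Clec4a4 4.51 higher (0.0479). All 3 calls were kept with dim probes left out and with an intensity trend, and lost with the 4 cDC arrays alone. The replicate block kept those of Esam and Cd4 and lost that of Clec4a4. These 3 calls were lost when any array was left out (limma adjusted p from 0.053 to 0.241), as were those of every probe when it was a cDC array, and the differences stayed between 1.75 and 5.41. Genes known from Esam-low CD8- cDC were not called between the cDC populations: Cx3cr1 differed by 0.43, Ccr2 by 0.08, Csf3r by 1.15 and Lyz2 by 0.26 (limma adjusted p = 0.482 to 0.993), and Clec12a was at background on all arrays.

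Other genes with the most similar pattern were listed for each probe that was called. The measure was Pearson's correlation over the 6 arrays among 8256 probes above background on at least 2 arrays with a range of at least 1, and it is a description in which the population means carry most of the likeness. For Notch4 probe A these were Lrrc1 (r = 0.9974), Gfus (0.9966) and Rab11a (0.9964), and for probe B Adora3 (0.9962), Hinfp (0.9957) and Kctd10 (0.9933). Lrrc1, the closest, had means of 9.02 in CD8+ cDC, 6.52 in CD8- cDC and 5.21 in macrophages. For Dtx1 they were Nrm (r = 0.9971), Mdh2 (0.9967) and Rtn1 (0.9964), for Jag1 H2ac15 (0.9987), H2ac7 (0.997) and Supt16 (0.997), and for Hes1 Specc1l (0.999), Prdx2 (0.9972) and Slc43a2 (0.9968). Many probes came close to these values: 499 had r over 0.9 with Notch4 probe A, 594 with Dtx1, 787 with Jag1 and 1311 with Hes1.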

How the data were processed

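The authors' deposited value table was used as it came. Its columns hold log2 signals that, as deposited by the authors, had already been normalized between arrays, since sorted columns differed by at most 0.0349. The method is not given in the sources used here, and the log base is inferred from the range. BeadStudio and limma appear in the submitters' processing notes with no role. A table of scanner signals has 12 columns whose names match no label and was not used. Of 45281 probes, 34885 had 1 gene symbol in the platform annotation, 18 several and 10378 none.

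All probes were fitted over the 6 arrays with limma 3.58.1 in R 4.3.3. Each population had its own coefficient, which left 3 residual degrees of freedom beside 1.86 of the prior. P-values were adjusted by Benjamini and Hochberg over all probes, and a call is an adjusted p under 0.05. Where all arrays of the dimmer population were at or under the background level, a fold is a minimum with those arrays counted at that level. Alternatives were the replicate number as a block, a filter on dim probes, an intensity trend in eBayes and the 4 arrays compared alone. Each array left out, a 95th percentile background level and a shorter motif were also tried. The filter kept probes above the background level on at least 2 arrays, so a probe can pass through the population where it is high. Notch4 probe B and Jag2 passed only through CD8+ cDC and Hey1 only through macrophages. Without an array of the population outside a comparison, the fit is that of the 4 arrays alone. A count of alternatives therefore holds this fit more than once. The steps were tested on simulated data. The number of arrays limits the precision.

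The members, gene lists and alternatives were chosen with earlier results of these data known. All member probes are given. Pathway genes were named when their call came with a change of at least 1 (log2), others were added after their values were seen, and the brightest probe stood for a gene. Likeness was taken for called probes only, with 3 genes each.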

Additional observations from a re-analysis of the deposited data

How the results depend on the processing

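With 2 arrays per population, calls depended on the fit. The block, the filter, the trend and the 4 arrays alone left each difference as in the main fit. Its size and direction could change only when an array of a compared population was left out. Of 390 recomputed differences, 270 kept direction and side of the threshold, 93 kept direction and lost the call, 25 gained it and 2 changed sign, neither of them called: Hes1 between the cDC populations (from -0.34 without CD8- cDC replicate 2 to 0.09 without replicate 1) and Notch1 in macrophages against CD8+ cDC (from -0.74 without CD8+ cDC replicate 2 to 0.21 without replicate 1). Fits without an array have 2 residual degrees of freedom, and a population left with 1 array is assumed to vary like the others. Where that population is outside the comparison, the result equals that of the 4 arrays alone. The 390 differences thus count that fit more than once for each comparison. The causes of other changes were not tested. Between CD8- and CD8+ cDC, the 0 called member probes became 4 with the filter on dim probes, 4 with an intensity trend and 2 with the 4 arrays alone, and 0 to 2 with an array left out. The 2 pathway genes became 0 with the replicate block, 1 with the trend and 0 with the 4 arrays alone or with any array left out. Between macrophages and CD8+ cDC, member probes ranged from 0 to 4 and pathway genes from 3 to 8 with an array left out, and pathway genes were 5 with the 4 arrays alone. Between macrophages and CD8- cDC, member probes were 5 with the filter and 5 with the trend. Leaving out an array gave 0 to 4 member probes and 2 to 11 pathway genes. In every fit without an array, fewer of all probes were called too, in each of the 3 comparisons. The filter left out the Notch2 and Rbpj probes.

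Replicates 1 and 2 share only a number in the labels. Their differences correlated at 0.403, 0.264 and 0.276 between populations over 17710 probes. With the replicate block, 0, 3 and 4 member probes were called in the 3 comparisons, Notch1 gaining a call in macrophages against CD8- cDC (adjusted p = 0.0456). In the cDC comparison Maml2 (0.0596), Clec4a4 (0.057) and Aph1b lost theirs, as did Tle2 in macrophages against CD8+ cDC (0.051). With the 95th percentile as background level (4.91), 7 member probes in place of 6 lay above it on some array. The motif TGGGAA was in 2 member promoters, both of Rbpj with overlapping windows, where GTGGGAA was in 0.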
